A study of Homo sapiens with 6 samples.

Results

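The 10 genes described here belong to the BCL2 family, whose proteins decide at the mitochondrial outer membrane whether a cell enters the intrinsic pathway of apoptosis. They were read in HCT116, an established line of human colorectal cancer cells. Cells received a lentivirus with a PNO1 shRNA, a hairpin RNA that silences its target (group sh-PNO1), or with a control shRNA (group sh-Ctrl). Each group had 3 samples, taken at 72 h, with 1 Affymetrix array per sample. Both groups therefore carried a lentivirus and an shRNA, and the labels name no further treatment. PNO1 is an assembly factor of the small ribosomal subunit. A probe set, the unit of measurement on this array, is a group of short probes for 1 transcript region. The family was taken as every probe set whose only gene symbol in the platform table was BCL2, BCL2L1, BCL2L2, MCL1, BAK1, BOK, BID, BIK, BMF or BCL2L11. This gave 51 of the 49293 probe sets tested, for 10 of 18132 genes, and no member was lost to a filter because none was applied.

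As background, the pro-survival proteins BCL2, BCL-XL (the main product of BCL2L1), BCL-W (from BCL2L2) and MCL1 hold the effectors in check. The effectors BAK (from BAK1) and BAX form the pores that release cytochrome c, and BOK resembles them in sequence. The BH3-only proteins BID, BIK, BMF and BIM (from BCL2L11) signal stress by binding either side. MCL1 protein and messenger RNA are short-lived, and MCL1 and BCL2L1 can each be spliced into a long form that protects cells and a short form that promotes death.

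In HCT116 cells with the PNO1 hairpin, 2 of the 6 MCL1 probe sets fell to about 50.6% and 52.5% of the control intensity while the other 4 did not pass the test. All 3 BIK probe sets rose 1.33- to 1.47-fold, 3 of 5 BAK1 probe sets rose 1.30- to 1.38-fold and 2 of 4 BID probe sets rose 1.12- and 1.23-fold. One of 3 BCL2L1 probe sets fell to 80.3%. No probe set of BCL2, BCL2L2 or BMF passed, and BOK and BCL2L11 each had 1 probe set higher and 1 lower.

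The arrays were alike in scale and the knockdown was present. The median intensity was 25.6 to 25.9 on every array, and the correlation of log2 values was 0.998 or more within a group and 0.993 or less between groups. The brightest PNO1 probe set gave 532 to 535 on the sh-Ctrl arrays and 105 to 108 on the sh-PNO1 arrays (log2 difference −2.33 ± 0.04 SE, limma adjusted p = 3.32e-07). An exact two-sided permutation test gave p = 0.1, the smallest that 3 arrays against 3 allow. No label ties the 3 samples of a group to separate cultures; the spread behind each p-value is that of these arrays and may be technical. The ACTB control probe sets, 3' minus 5', a sign of RNA quality, differed by 2.25 on sh-PNO1 replicate 2 and by 1.73 to 1.87 on the other 5 arrays. Its part in the results was not tested. Member probe sets whose call changed without that array are named below. In the gene lists below, leaving it out lowered the called genes from 8 to 7 for outer membrane and released factors. Transcription factors went from 7 to 6 and splicing regulators from 6 to 4. Leaving out other single arrays also lowered the last 2 counts. Each marker gene was read by its brightest probe set. The epithelial markers EPCAM, KRT8, KRT18 and KRT19 lay between 1812 and 3064 in intensity on all arrays, whereas VIL1, a marker of differentiated enterocytes, was at 4.88 ± 0.36 in sh-Ctrl. KRT19 (0.37) and CDH1 (0.31), which encodes E-cadherin, rose, and the other 5 of 7 epithelial markers did not pass, although 1 of 8 KRT8 probe sets was called higher and 1 of 2 KRT18 probe sets lower (−0.21). All 14 measured markers of fibroblasts, leukocytes and endothelium stayed at or below 39.7 on that probe set, where none passed; a dimmer probe set was called higher for COL1A1 (0.39), COL3A1 (0.27) and VWF (0.19).

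A probe set was called at a Benjamini-Hochberg adjusted p under 0.05 in limma over all probe sets. In all, 15 of the 51 members were called (29.4%), against 28% of all probe sets, so the family as a whole was called about as often as the array. The 10 called higher were 19.6% of members, against 14.8% of all probe sets, and the 5 called lower were 9.8%, against 13.2%. With arrays set to equal housekeeping means the split of called members was 14 higher and 4 lower, and that of all probe sets moved from 53% to 63.9% higher. In 22 members the 2 groups of arrays did not overlap, beside 40.2% of all probe sets; sh-PNO1 was the higher group in 15 (21.9% of all probe sets) and the lower in 7 (18.3%). The median log2 difference of the 51 was 0.02, beside 0.01 over all probe sets, and the median size was 0.10 for both. Many members were dim: 18 had both group means under an intensity of 20, a split chosen after the values were seen, and 1 of these was called, against 7.94% of all probe sets as dim. Of the 33 brighter ones 14 were called, where 43.2% of all probe sets as bright were.

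By role, 0 of 18 pro-survival probe sets were called higher and 3, or 16.7%, lower (median log2 difference −0.03). Of these 3, 2 were MCL1 probe sets with the same source sequence. Of 8 effector probe sets 4 (50%) were called higher and 1 (12.5%) lower (median 0.14). Of 25 BH3-only probe sets 6 (24%) were called higher and 1 (4%) lower (median 0.06). Over all probe sets 14.8% were called higher and 13.2% lower. Called either way were 28% of BH3-only probe sets, as of all probe sets. Differences between the roles were not tested, since the probe sets of a gene share their transcripts.

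**Figure D1:**
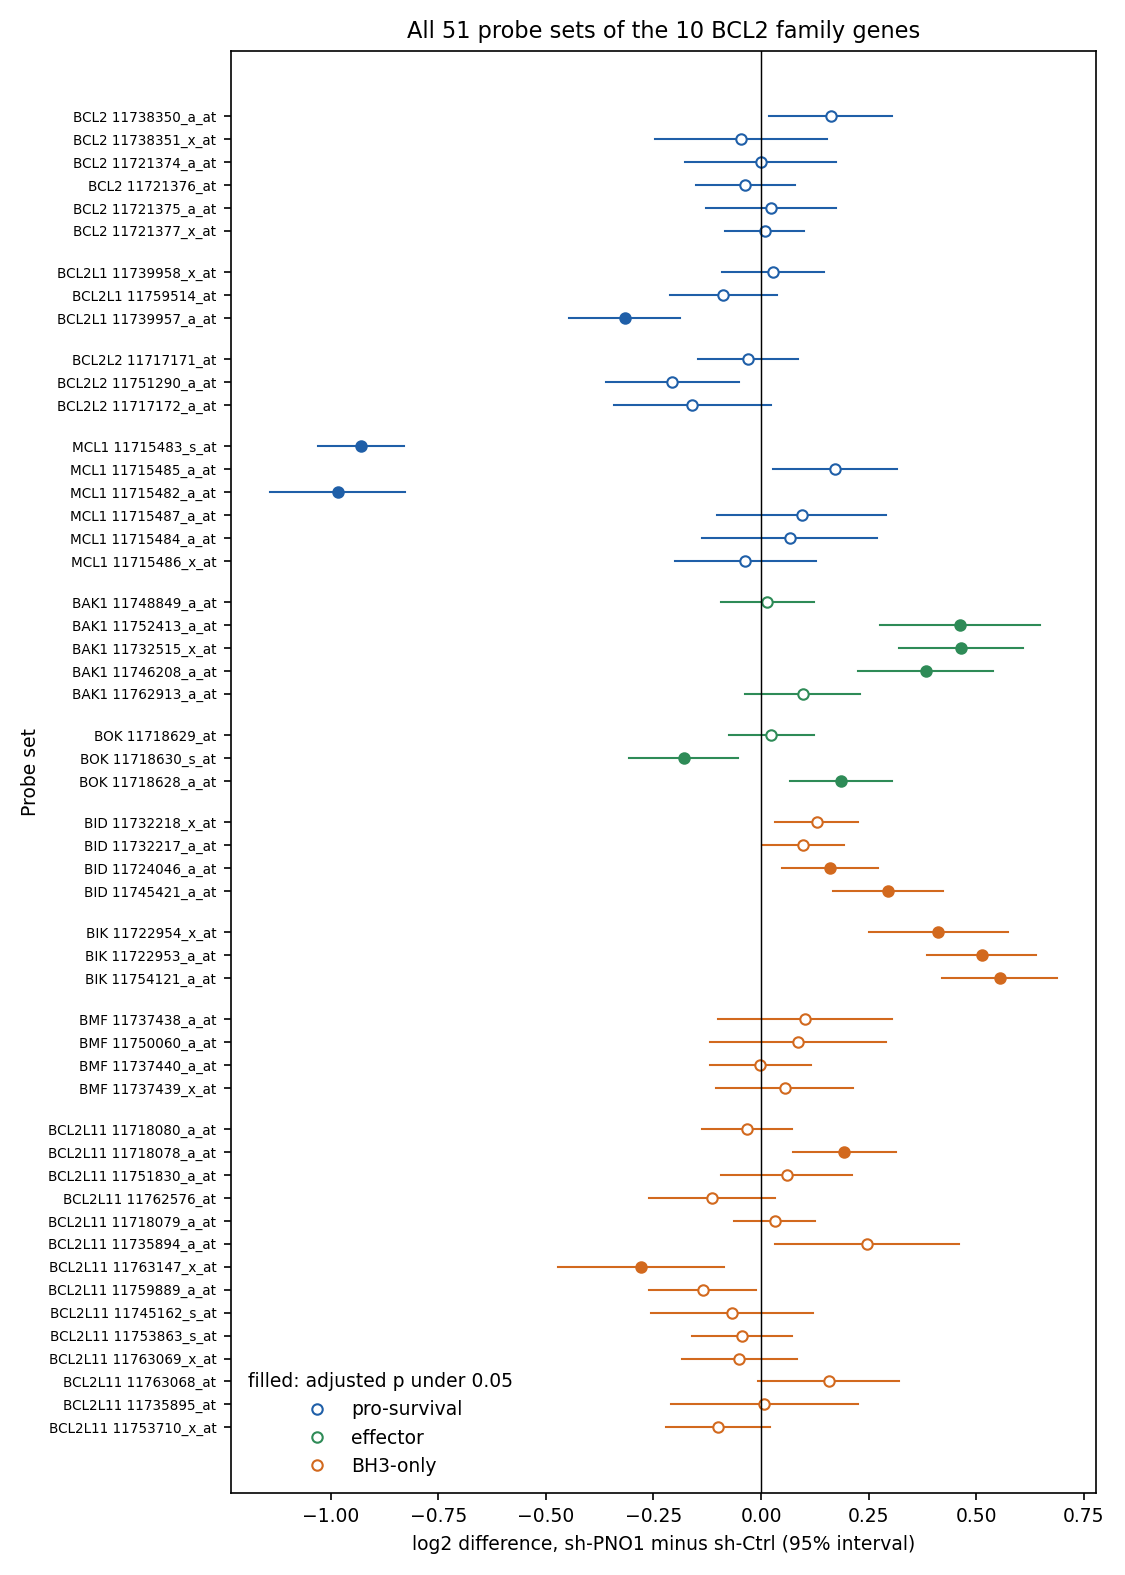
Log2 difference of intensity, sh-PNO1 minus sh-Ctrl (x axis), for each of the 51 probe sets (y axis), with its 95% interval from limma; filled points passed an adjusted p under 0.05 and colours give the role. The 2 MCL1 probe sets near −0.93 and −0.98 stand far to the left of all others, while the 3 BIK and 3 of the 5 BAK1 probe sets lie between 0.38 and 0.55.

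MCL1 carried the largest changes of the family. On probe set 11715483_s_at the sh-Ctrl arrays read 697, 712 and 688 and the sh-PNO1 arrays 373, 357 and 373. The groups were far apart, the lowest control array being well above the highest knockdown array. This was a fall from 699 ± 12.2 to 367 ± 9.25 (SD, n = 3; log2 difference −0.93 ± 0.04 SE, limma adjusted p = 6.1e-06). On probe set 11715482_a_at the sh-Ctrl arrays read 282, 319 and 286 and the sh-PNO1 arrays 157, 152 and 139. Again each knockdown array lay below each control array, with a fall from 296 ± 20.6 to 149 ± 9.40 (log2 difference −0.98 ± 0.07 SE, adjusted p = 3.47e-05). Falls of at least 0.5 on the log2 scale that passed were seen in 3.73% of all probe sets. In RNA from whole cultures, a fall in every cell and a deeper fall in some cells cannot be told apart.

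The other 4 MCL1 probe sets did not follow. Probe set 11715485_a_at read 212, 208 and 219 in sh-Ctrl and 260.0, 223 and 239 in sh-PNO1, so that the knockdown arrays were the higher ones without overlap. Its log2 difference was 0.17 ± 0.06 SE, with an adjusted p of 0.078 that missed the threshold; without sh-PNO1 replicate 2 it was 0.23 (adjusted p = 0.0328), with a trended, robust prior 0.17 (0.0305) and with arrays set to equal housekeeping means 0.21 (0.0254). Probe set 11715487_a_at read 77.6, 94.0 and 75.0 against 91.1, 86.2 and 84.8, and the groups overlapped. Its log2 difference was 0.09, with a 95% interval of −0.10 to 0.29; without sh-Ctrl replicate 2, its highest control array, it was 0.20 and passed (adjusted p = 0.0475). For 11715484_a_at the log2 difference was 0.07 (95% interval −0.14 to 0.27) and for the dim 11715486_x_at it was −0.04 (−0.20 to 0.13). None of these 4 intervals reached down to a fall of the size seen on the first 2.

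Whether probe sets of 1 gene moved by unequal amounts was tested directly, by fitting the log2 value of each probe set minus the mean of the other probe sets of its gene on the same array. Over all 38590 probe sets of genes with 2 or more, 12.4% were called in this within-gene fit (6.29% higher, 6.14% lower), and 10 of the 51 members were, 5 higher and 5 lower. For MCL1, 11715483_s_at fell by 0.79 ± 0.05 SE relative to the other 5 (limma adjusted p = 8.97e-05) and 11715482_a_at by 0.86 ± 0.08 SE (adjusted p = 0.000392). Relative to the others, 11715485_a_at was higher by 0.53 ± 0.07 SE (adjusted p = 0.00184), 11715487_a_at by 0.44 (0.0147) and 11715484_a_at by 0.40 (0.022). The last 2 calls each held in 11 of 14 alternatives, with adjusted p-values of up to 0.0553 and 0.0757. These values are linked, since the 2 that fell enter the mean that the others are set against. The log2 differences of the 6 probe sets spanned 1.15. Of the 498 genes with 6 probe sets, MCL1 included, 98.8% had a span no larger than this, and the median span was 0.31. Probe sets called both ways in this fit were found in 1564 of 11734 genes, or 13.3%. The differences of a gene cancel out by construction, so calls in both directions, and the even splits above, are partly built in. In a gene with 2 probe sets they mirror each other, and any call is both ways. This share is therefore no measure for a gene with 6, such as MCL1.

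Per the platform table, both MCL1 probe sets that fell were built on the RefSeq transcript NM_021960.3, which encodes the long, protective form. The 4 that did not pass as lower were built on other sequences: 11715485_a_at and 11715486_x_at on 1 expressed sequence tag, 11715484_a_at on BC107735.1 and 11715487_a_at on AF118124.1. Probe sequences were not used here, so which isoform or stretch of the transcript each probe set reads is not known. The 2 that fell share their source sequence and are not independent of each other. Averaged over its 6 probe sets, MCL1 stood at −0.27 ± 0.04 SE (adjusted p = 0.0012 over 18132 genes), a value that no single probe set showed.

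**Figure D2:**
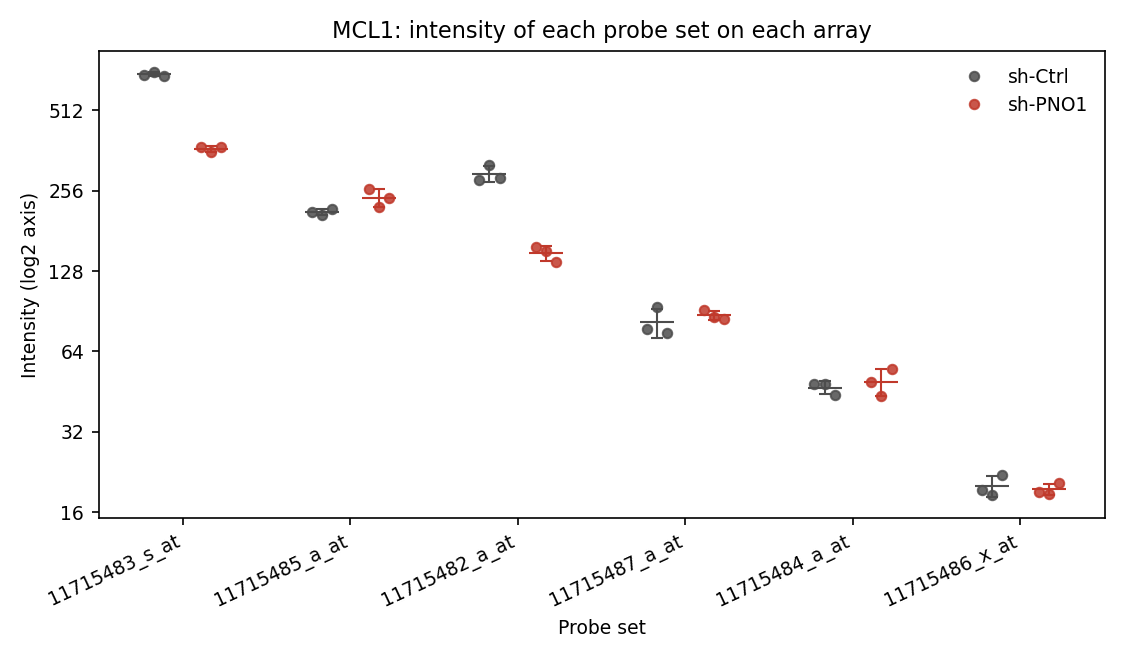
Intensity (y axis, log2 scale) of the 6 MCL1 probe sets (x axis) on each of 3 sh-Ctrl and 3 sh-PNO1 arrays; points are arrays, horizontal marks the group mean and bars 1 SD. The groups are clearly apart and falling on 11715483_s_at (699 to 367) and 11715482_a_at (296 to 149), whereas they lie close together or overlap on the other 4.

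Of the 12 probe sets of the other pro-survival genes 1 passed. For BCL2L1, probe set 11739957_a_at read 36.4, 39.5 and 40.3 in sh-Ctrl and 29.8, 32.3 and 31.2 in sh-PNO1, with every knockdown array the lower. The log2 difference was −0.32 ± 0.06 SE (limma adjusted p = 0.00369). Its other probe sets did not pass. Probe set 11739958_x_at, built on NM_001191.2, the RefSeq transcript of the short form, read 179, 172 and 173 against 189, 171 and 175, with overlapping groups (log2 difference 0.03, 95% interval −0.09 to 0.15). Probe sequences were not used, so which BCL2L1 form each probe set reads is not known. Probe set 11759514_at read 173, 181 and 171 against 155, 172 and 167 (log2 difference −0.09, 95% interval −0.21 to 0.04). Relative to the other 2, 11739957_a_at fell by 0.29 in the within-gene fit (adjusted p = 0.0236), a call that was lost in 5 of 14 alternative settings (adjusted p up to 0.0782).

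BCL2L2, which encodes BCL-W, had no probe set that passed. The brightest, 11717171_at, read 290.2, 272 and 271 in sh-Ctrl and 271, 262 and 282 in sh-PNO1, with overlapping groups and a 95% interval of the log2 difference from −0.15 to 0.09. The dim 11751290_a_at stood at −0.21 with an adjusted p of 0.0534, close to the threshold, and passed in 4 alternatives, among them without sh-Ctrl replicate 2 (−0.27, adjusted p = 0.0221). Without that same array the third probe set, 11717172_a_at, passed as well (−0.24, adjusted p = 0.0374, against −0.16 and 0.181 with all arrays). Probe sets that also match the BCL2L2-PABPN1 readthrough transcript carry several symbols and were not counted.

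BCL2 itself was dim throughout, its 6 probe sets having group means between 6.11 and 41.0. The brightest, 11738350_a_at, read 37.6, 34.6 and 37.6 in sh-Ctrl and 44.0, 40.0 and 38.9 in sh-PNO1. The knockdown arrays were the higher ones without overlap, but the difference did not pass (log2 difference 0.16 ± 0.06 SE, adjusted p = 0.0905; 0.20 and 0.0374 with equal housekeeping means). The other 5 lay between −0.05 and 0.02 on the log2 scale, and in all 5 the groups overlapped. The array carries 23 probe sets for background, whose means ran from 2.53 to 773 and were highest at high GC content; the BCL2 group means exceeded 12 to 18 of them, and no family member exceeded all 23. Without GC content for each probe set, how far dim probe sets stand above their own background is not known.

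BAK1 encodes BAK, which sits in the outer membrane in living cells and oligomerises into pores once activated. Its promoter and that of BID, the 2 genes with more than 1 rising probe set for which the promoter table held a sequence, are shown over the 250 bases before the start (RefSeq, GRCh38.p14, 5′ to 3′, capitals marking the GC box GGGCGG on either strand). The table matched 7 of the 10 genes; MCL1, BIK and BCL2L2 had no entry. BAK1 lies on the minus strand at chr6:33580277-33580526, and the BID start shown is 1 of 5 in the table, on the minus strand at chr22:17774470-17774719; it was picked after its motifs were seen, as 1 of 2 windows with the most GC boxes.
BAK1: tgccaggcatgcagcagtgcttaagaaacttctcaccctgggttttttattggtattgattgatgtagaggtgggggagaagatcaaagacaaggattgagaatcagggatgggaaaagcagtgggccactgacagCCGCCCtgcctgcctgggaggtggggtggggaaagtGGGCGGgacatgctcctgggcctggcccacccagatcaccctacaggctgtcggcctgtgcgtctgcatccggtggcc
BID: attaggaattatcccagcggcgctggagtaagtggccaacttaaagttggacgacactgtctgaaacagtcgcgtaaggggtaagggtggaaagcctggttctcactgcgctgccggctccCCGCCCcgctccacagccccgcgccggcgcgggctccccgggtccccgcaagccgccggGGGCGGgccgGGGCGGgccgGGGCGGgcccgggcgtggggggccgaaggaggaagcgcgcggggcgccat
The BAK1 window held 2 GC boxes and 1 CCAAT box, at 58% GC, and the BID window 4 GC boxes and no CCAAT box, at 72% GC. Of 35116 such windows in the table, 42.6% held a GC box and 32% a CCAAT box on either strand. Neither window held TATAAA, the cyclic AMP element TGACGTCA, the E box CACGTG or the E2F motif TTTNGCGC, which were present in 10.7%, 1.65%, 6.34% and 1.51% of windows. Among genes with no probe set passing, BMF had 1 window with a GC box and a CCAAT box and 1 with neither, and BCL2 had neither. Of the genes with mixed or single calls, BCL2L11 had 3 GC boxes and 1 CCAAT box. BOK had 1 of each, and the BCL2L1 windows held neither. The other 4 BID windows held 0 to 4 GC boxes each, and 2 of them held an E box. The matches describe these letters only.

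Of the 5 BAK1 probe sets 3 rose. On 11732515_x_at the sh-Ctrl arrays read 36.1, 38.2 and 38.6 and the sh-PNO1 arrays 50.2, 49.3 and 56.5 (log2 difference 0.46 ± 0.06 SE, limma adjusted p = 0.000966). On 11752413_a_at they read 39.7, 42.3 and 41.2 against 49.6, 60.4 and 60.4 (0.46 ± 0.08 SE, adjusted p = 0.00347). On 11746208_a_at they read 19.9, 22.1 and 19.6 against 27.8, 24.7 and 27.7 (0.38 ± 0.07 SE, adjusted p = 0.00384). In each of the 3 every knockdown array was above every control array, and each passed in all 14 alternative settings. The brightest BAK1 probe set, 11748849_a_at, did not pass: it read 77.6, 77.6 and 81.9 in sh-Ctrl and 77.6, 82.1 and 79.8 in sh-PNO1, with a 95% interval of −0.09 to 0.12. Relative to the other 4 it fell by 0.34 ± 0.06 SE in the within-gene fit (adjusted p = 0.00711). A gene call that rests on the brightest probe set alone therefore leaves BAK1 uncalled, while the mean of its 5 probe sets rose by 0.28 ± 0.04 SE (adjusted p = 0.000608).

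BOK, whose protein is held down by degradation in many cells, gave 3 different answers. Probe set 11718628_a_at read 49.6, 48.3 and 46.2 in sh-Ctrl and 53.5, 57.4 and 53.1 in sh-PNO1, higher without overlap (log2 difference 0.19 ± 0.05 SE, limma adjusted p = 0.0282). Probe set 11718630_s_at read 73.8, 68.8 and 68.0 against 58.7, 64.6 and 62.6, lower without overlap (−0.18 ± 0.06 SE, adjusted p = 0.0436). The third, 11718629_at, held the same deposited value of 87.6 on 5 arrays and 92.0 on sh-PNO1 replicate 3, so its control SD was 0. Both calls were fragile. The rise was lost without sh-Ctrl replicate 2 (adjusted p = 0.072), sh-Ctrl replicate 3 (0.0911) or sh-PNO1 replicate 2 (0.0812), and the fall without any 1 array except sh-PNO1 replicate 2 (up to 0.134) and with equal housekeeping means (0.14). In the within-gene fit the first rose by 0.26 (adjusted p = 0.0188) and the second fell by 0.28 (adjusted p = 0.0122) relative to the rest of the gene; the call of the first held in 8 of 14 alternatives (adjusted p up to 0.0653).

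Identical values on several arrays were common in the deposited table. Of all probe sets 38.9% held a value shared by 2 or more arrays, and so did 15 of the 51 members. No called member was among these 15, but the brightest BAK1 probe set, 11748849_a_at, was. Such ties make the spread of a probe set look smaller than it may be.

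BIK, a BH3-only protein of the endoplasmic reticulum, was the 1 gene of the family on which every probe set passed in the same direction. Probe set 11754121_a_at read 78.4, 80.3 and 72.0 in sh-Ctrl and 107, 116 and 116 in sh-PNO1 (log2 difference 0.55 ± 0.06 SE, limma adjusted p = 0.000261). Probe set 11722953_a_at read 137, 153 and 143 against 198, 209 and 210 (0.51 ± 0.06 SE, adjusted p = 0.000305). Probe set 11722954_x_at read 195, 200.1 and 191 against 233, 274 and 274 (0.41 ± 0.07 SE, adjusted p = 0.00308). No knockdown array overlapped the controls on any of the 3, and sh-PNO1 replicate 1 was the lowest knockdown array on each. All 3 passed in each of 14 alternatives, and none differed from the rest of its gene in the within-gene fit (adjusted p = 0.237 to 0.806). The mean of the 3 rose by 0.49 ± 0.05 SE (adjusted p = 0.000141).

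BID links death receptors to mitochondria once caspase-8 has cut it. All 4 of its probe sets were higher in sh-PNO1 without overlap, and 2 passed. Probe set 11745421_a_at read 104, 106 and 99.1 in sh-Ctrl and 118, 130 and 131 in sh-PNO1 (log2 difference 0.30 ± 0.06 SE, limma adjusted p = 0.00491), and it passed in all 14 alternatives. Probe set 11724046_a_at read 192, 175 and 187 against 206, 204 and 208 (0.16 ± 0.05 SE, adjusted p = 0.0422), but leaving out any array except sh-Ctrl replicate 1 ended the call, with adjusted p-values of up to 0.115. The remaining pair stood at 0.13 (11732218_x_at, adjusted p = 0.0515) and 0.10 (11732217_a_at, adjusted p = 0.12). The first of this pair, the brightest of the gene, passed in 5 of 14 alternatives and the second in 1. No BID probe set differed from the others of the gene in the within-gene fit, and their mean rose by 0.17 ± 0.03 SE (adjusted p = 0.00479).

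**Figure D3:**
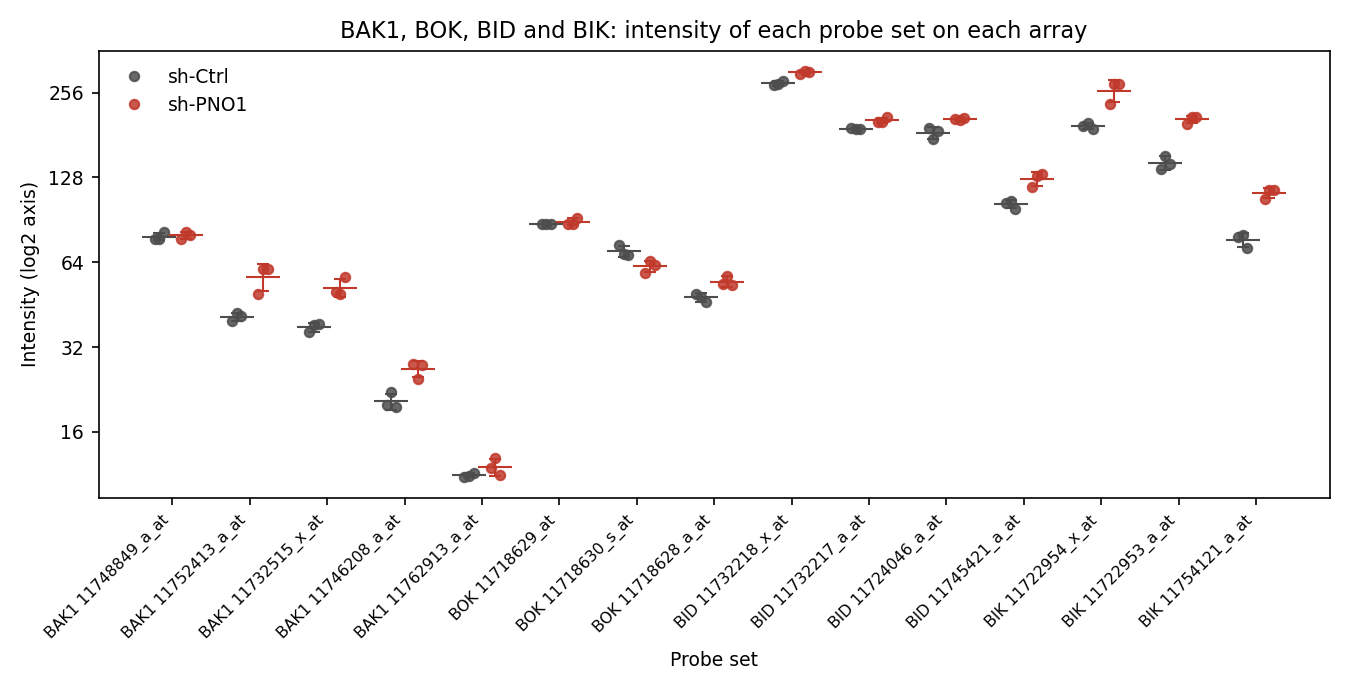
Intensity (y axis, log2 scale) of each probe set of BAK1, BOK, BID and BIK (x axis) on 3 sh-Ctrl and 3 sh-PNO1 arrays; points are arrays, horizontal marks the group mean and bars 1 SD. All BIK and BID probe sets have every sh-PNO1 array above every sh-Ctrl array, 3 of 5 BAK1 probe sets do, and the 3 BOK probe sets go up, down and level.

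BCL2L11, which encodes the potent BH3-only protein BIM in many splice forms, had 14 probe sets, of which 12 did not pass. Probe set 11718078_a_at read 58.2, 58.4 and 54.1 in sh-Ctrl and 62.9, 64.6 and 67.7 in sh-PNO1, higher without overlap (log2 difference 0.19 ± 0.05 SE, limma adjusted p = 0.026). It did not pass without sh-Ctrl replicate 1 or 3 or sh-PNO1 replicate 2 or 3 (adjusted p up to 0.0812). Relative to the other 13 it was higher by 0.22 in the within-gene fit (adjusted p = 0.0487), a call that held in 5 of 14 alternatives. The dim 11763147_x_at read 13.3, 13.3 and 16.2 against 11.5, 11.3 and 12.3, lower without overlap (−0.28 ± 0.08 SE, adjusted p = 0.0393), and it passed in 7 of 14 alternatives. Leaving out any array except sh-Ctrl replicate 1 ended the call: without sh-PNO1 replicate 2 the difference was −0.26 (adjusted p = 0.122), and without sh-Ctrl replicate 3 it was −0.18 (0.061). The brightest, 11718080_a_at, read 74.9, 75.6 and 71.9 against 73.1, 70.3 and 74.0, with a 95% interval of −0.14 to 0.07. Over the 14 the log2 differences ran from −0.28 to 0.25 with a median of −0.04, and the mean of all 14 was −0.01 (adjusted p = 0.862).

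BMF, a BH3-only protein that binds the dynein light chain of the myosin motor, had no probe set that passed. Its 4 probe sets had group means of 11.4 to 37.2 and log2 differences of −0.002 to 0.10, and the groups overlapped on each. The brightest, 11737438_a_at, read 32.1, 34.8 and 36.7 in sh-Ctrl and 42.1, 34.2 and 35.2 in sh-PNO1, where sh-PNO1 replicate 1 alone stood high. Its 95% interval ran from −0.10 to 0.30.

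Counting 1 probe set per gene, the brightest, 2 of the 10 genes were called, MCL1 lower and BIK higher, beside 31.6% of all genes in the same fit. In a fit of these brightest probe sets only, BID was called higher as well (limma adjusted p = 0.0325), beside 34.1% of all genes. With the probe sets of each gene averaged, 5 were called, BAK1, BID and BIK higher and MCL1 and BCL2L1 lower, beside 33.7% of all genes; BCL2L1 then stood at −0.13 (limma adjusted p = 0.0196).

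Other genes of the pathway were taken from 5 lists of textbook members, each gene represented by its brightest probe set. The lists were chosen with earlier results of these data known, so their counts are not those of an unselected set. Over all genes so represented, 18.4% were called higher and 13.2% lower, with a median log2 difference of 0.03. Among the rest of the family and its relatives 5 of 13 were called higher and none lower on that probe set (median 0.08). At an unadjusted p under 0.05 in limma none was lower on it either. On dimmer probe sets, 1 of 7 of BCL2L13 was called lower and 1 higher, its lowest log2 difference being −0.41. For BCL2L14, 1 of 3 was called higher. BBC3, a BH3-only protein also called PUMA, rose by 0.70 ± 0.04 SE (limma adjusted p = 1.68e-05, 2 of 2 probe sets). HRK, another BH3-only protein, rose by 0.59 ± 0.08 SE on its 1 probe set, from 31.0 ± 1.31 to 46.8 ± 4.95 (SD, n = 3). BAD, which neutralises BCL2 and BCL-XL, rose by 0.43 ± 0.06 SE and BAX, the partner effector of BAK, by 0.33 ± 0.05 SE, each on 2 of 2 probe sets. PMAIP1, the BH3-only protein NOXA that binds MCL1, stood at 0.02 (adjusted p = 0.721).

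Of 14 measured genes for outer membrane channels, released factors and the caspases they activate, 6 were called higher and 2 lower (median 0.11). Among those not called, CYCS had 1 of 3 probe sets called higher (0.29) and 1 lower (−0.44). DIABLO, the released factor that blocks inhibitors of apoptosis, fell by 0.65 ± 0.04 SE on its 1 probe set (544 ± 2.40 to 346 ± 9.49). OPA1, which keeps cristae closed, fell by 0.64 ± 0.05 SE on its brightest probe set, with 4 of 5 probe sets lower and 1 higher. CASP9, the initiator caspase of the apoptosome, rose by 0.50 ± 0.07 SE on its brightest probe set, while the other stood at 0.05. ENDOG, a mitochondrial nuclease, rose by 0.29 ± 0.04 SE.

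Of 13 measured genes for turnover and tethering of family proteins, 5 were called higher and 1 lower (median 0.01). Among those not called, USP9X had 3 of 5 probe sets called lower (lowest log2 difference −0.45) and GSK3B 1 of 2 higher (0.28). ITPR1, an inositol trisphosphate receptor of the kind that binds BOK, rose by 1.14 ± 0.06 SE from a dim 18.2 ± 1.20 to 40.0 ± 1.86, with 2 of 3 probe sets higher. DYNLL2, the dynein light chain that tethers BMF, rose by 0.50 ± 0.04 SE on 1 of 2 probe sets. MARCHF5, a mitochondrial ubiquitin ligase, rose by 0.48 ± 0.05 SE on its brightest probe set, with 2 of 3 higher, and GSK3A, a kinase of the family that marks MCL1 for degradation, by 0.42 ± 0.04 SE on 3 of 3.

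Of 11 transcription factors known to act on family genes, 4 were called higher and 3 lower (median 0.02). JUN rose by 0.96 ± 0.07 SE with 4 of 4 probe sets higher, DDIT3, the stress factor CHOP, by 0.84 ± 0.08 SE with 2 of 2, and STAT3, an activator of MCL1 and BCL2L1 transcription, by 0.80 ± 0.06 SE with 3 of 3. FOXO1, of the family that drives BCL2L11, fell by 0.42 ± 0.05 SE on its brightest probe set, with 2 of 4 lower. Of 14 splicing regulators with reported effects on family transcripts, 2 were called higher and 4 lower (median −0.04). Among those not called, dimmer probe sets were called lower for SRSF1 (4 of 6, lowest log2 difference −0.59) and KHDRBS1 (1 of 6). Dimmer probe sets were called higher for SRSF9 (2 of 4) and HNRNPA1 (2 of 5). RBM25 rose by 0.35 ± 0.05 SE on its brightest probe set, but its 9 probe sets included 3 called higher and 2 lower. RBM10 rose by 0.18 ± 0.04 SE, HNRNPF fell by 0.22 ± 0.05 SE with 6 of 7 probe sets lower, and RBM4 fell by 0.28 ± 0.06 SE with 1 of 2 lower.

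**Figure D4:**
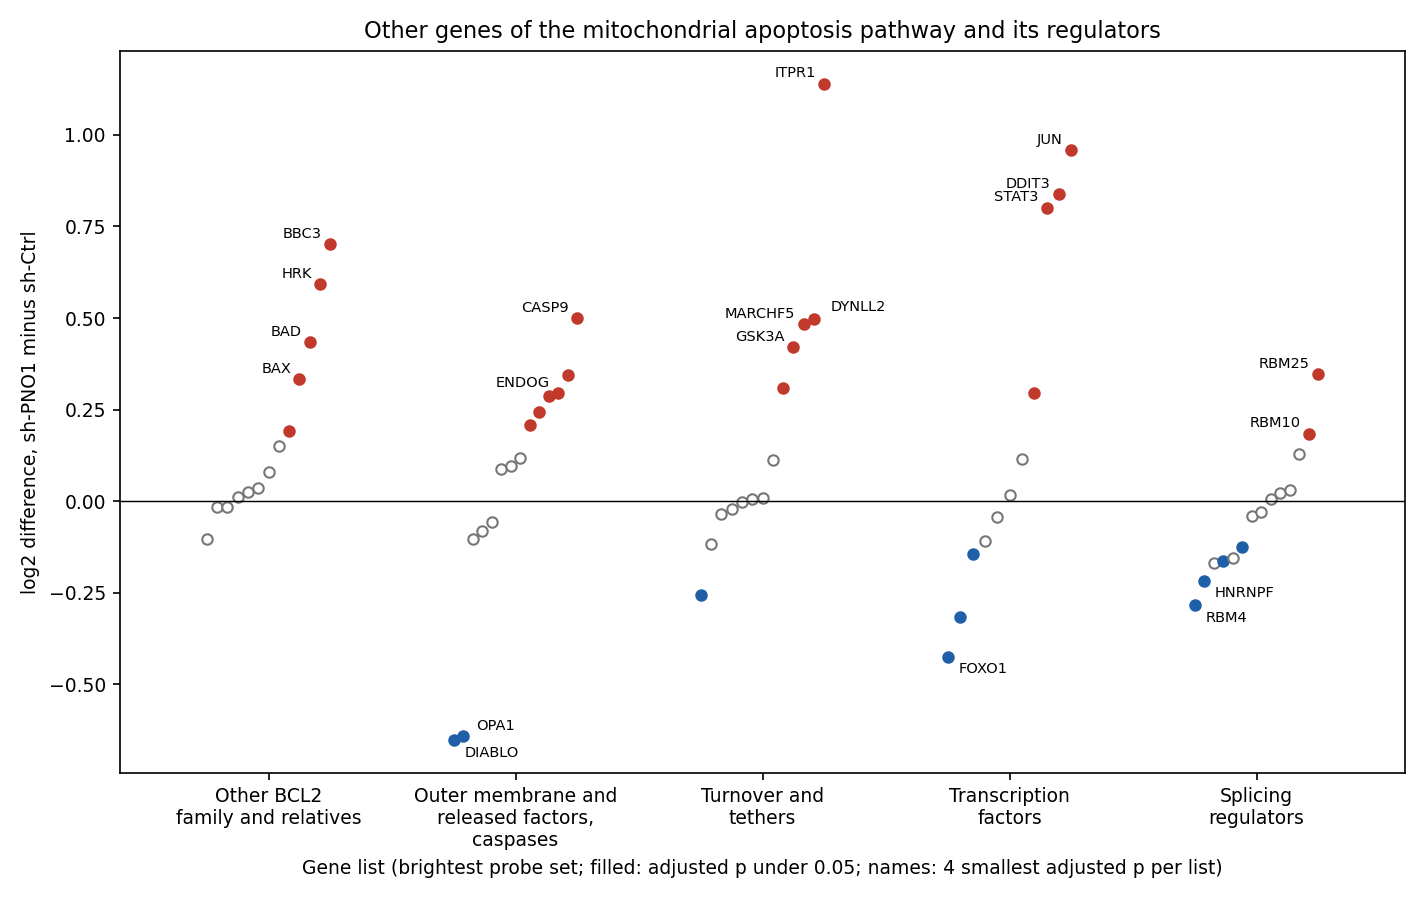
Log2 difference, sh-PNO1 minus sh-Ctrl (y axis), of each gene's brightest probe set in 5 lists (x axis); filled points passed an adjusted p under 0.05, red higher and blue lower, and the 4 genes with the smallest adjusted p in each list are named. The other family genes that passed all rose, from 0.19 to 0.70, while DIABLO (−0.65) and OPA1 (−0.64) are the lowest points.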

How the data were processed

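Total RNA (100 ng) was labelled as biotinylated cRNA and hybridised to Affymetrix arrays, per the labels' protocols. The authors deposited 1 intensity, not log-transformed, for each of 49395 probe sets on 6 arrays. RMA, which summarises probes and normalises between arrays, is named without a version in the submitters' processing notes; its software, and any genome build, were not given in the sources used here. Such normalisation removes any overall rise or fall of messenger RNA. RMA usually returns log2 values, so log2 was taken here, without an added constant. The 102 control probe sets were left out, of the others 44988 had 1 gene symbol, 1832 several and 2473 none, and all 49293 were fitted with lmFit and eBayes of limma 3.58.1 in R 4.3.3, as sh-PNO1 minus sh-Ctrl, no covariate, Benjamini-Hochberg over all, called at an adjusted p under 0.05. The within-gene fit used the same steps on 38590 differences. Both steps were run on simulated data with independent noise and 200 changed probe sets. Far more were called in these data, so that run does not give their error rates. The false share of the within-gene fit was not measured. Named were PNO1, all members and up to 4 genes per list with the smallest adjusted p. KRT19, CDH1, VIL1, COL1A1, COL3A1, VWF, PMAIP1, BCL2L13 and BCL2L14 were picked from fixed lists after their values were seen. So were CYCS, USP9X, GSK3B, SRSF1, SRSF9, HNRNPA1 and KHDRBS1, and the epithelial markers given by range. Members and lists were chosen with earlier results of these data known. Groups came from the sample titles. Alternatives were a replicate block, a mean-variance trend with robust prior, array weights, repeated quantile normalisation, equal housekeeping means (10 genes), the dimmest 30% left out, log2 of intensity plus 16, an adjusted p under 0.01, each array left out, probe sets averaged, 1 probe set per gene, and no _x_at or _s_at probe sets. Promoter sequences came from RefSeq (GRCh38.p14).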

Additional observations from a re-analysis of the deposited data

How the results depend on the processing

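No member probe set reversed its direction while called, and 10 of the 15 called members (2 of MCL1, 3 of BIK, 3 of BAK1, 1 of BID, 1 of BCL2L1) passed in all 14 alternatives; the other 5 (2 of BOK, 2 of BCL2L11, 1 of BID) did not. An adjusted p under 0.01 left 8666 probe sets of the array, 4 members in the within-gene fit and 1 splicing regulator. Genes called by 1 value each rose from 2 to 4 with equal housekeeping means, which shifted all log2 differences by 0.04, and to 5 with probe sets averaged. Several other settings gave 3, among them the mean-variance trend with robust prior and the fit of 1 probe set per gene. Without _x_at and _s_at probe sets, 9 members were called. Fewer members were tested there, and not every called member that remained kept its call. With 1 array left out, 10 (without sh-Ctrl replicate 3) to 14 members were called, and 6 to 8 in the within-gene fit, 6 without sh-Ctrl replicate 2; fewer samples enter these fits.

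Whether samples of the 2 groups were paired is not known. Deviations from the group means correlated at −0.04, 0.10 and −0.03 for same-numbered arrays. For differently numbered arrays they correlated at −0.05 to 0.09. With so few arrays these values cannot settle pairing under these or other numbers. With the replicate block 13 members were called, 12964 probe sets in all, and 10 in the within-gene fit. The number of arrays and the unknown background of dim probe sets limit every value.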
